A study of Homo sapiens with 6 samples.

Results

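The genes described here encode the machinery that attaches the ubiquitin-like protein ISG15 to other proteins and takes it off again. They are ISG15 itself, the activating enzyme UBA7, the conjugating enzyme UBE2L6, the HECT-type ligases HERC5 and HERC6, and the protease USP18. They were chosen by name, with earlier results of these data known. All 6 were found by their Ensembl identifier among the 57820 genes of the count table. All 6 passed the filter on low counts that kept 16396 genes.

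RNA came from Cal27, an established cell line derived from a human tongue squamous carcinoma, with 2 biological replicates in each of 3 groups and all libraries in batch 1. The CRNN cells had received a lentivirus that carries cornulin (CRNN), a protein of differentiating squamous epithelium. The GFP cells had received a GFP control vector, and both transduced groups were harvested 48 h after transduction with polybrene at 8 µg/ml. The third group was untreated Cal27 cells, labelled wild type, for which the labels give no polybrene and no harvest time, so transduction, polybrene and timing cannot be told apart in any comparison with them. The labels state neither the promoter of the constructs nor whether transduced cells were selected. The comparison of CRNN with GFP asks what differs when the insert is CRNN, and each comparison with untreated cells includes the transduction.

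ISG15 is made in large amounts after type I interferon acts on a cell. UBA7 activates it, UBE2L6 carries it, and in human cells HERC5 is the main ligase that joins it to newly made proteins, while HERC6 is the closest relative of HERC5 and does this work in mice. USP18 cleaves ISG15 from its targets and, independently of that, binds the interferon receptor chain IFNAR2 and dampens signalling. All 6 genes are themselves induced by interferon. The libraries measure transcripts, not ISG15 conjugates.

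The depth of a library was between 11817105 counts (GFP replicate 2) and 28041227 counts (untreated replicate 1), so that 3 counts corresponded to between 0.115 and 0.239 CPM, the unit used here for counts scaled to library depth with TMM factors. CRNN itself had 964 and 1028 CPM in the CRNN libraries, 3.06 and 2.55 CPM in the GFP libraries and 3.51 and 2.08 CPM in the untreated libraries, as its labels say. Epithelial markers were abundant, with KRT5 between 1902 and 4270 CPM and EPCAM between 106 and 149.5 CPM over the libraries. TP63 lay between 153 and 468 CPM. The others on that list differed between untreated replicates 1 and 2, with KRT17 at 1771 and 113 CPM, KRT14 at 64.5 and 274.5 CPM, and CDH1 at 281 and 116 CPM. The 9 immune cell markers, given because such cells can be a source of interferon, summed to 9.61 and 8.25 CPM in CRNN, 5.97 and 6.23 CPM in GFP, and 6.19 and 6.85 CPM in untreated cells. Most of that was CD14. CLEC4C and IL3RA had 0 counts in all libraries, and PTPRC, the pan-leukocyte marker, had at most 0.878 CPM. The 6 fibroblast markers summed to 5.21 and 5.22 CPM in CRNN, 6.44 and 9.10 CPM in GFP, and 5.50 and 3.96 CPM in untreated cells. The 3 endothelial markers matched summed to 8.11 and 10.3 CPM in CRNN, 8.05 and 13.97 CPM in GFP, and 53.0 and 13.1 CPM in untreated cells. The part of these markers in the results was not tested. In bulk RNA, fewer cells that express a gene and less RNA per cell cannot be told apart.

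The promoters of 4 members were held in the RefSeq table used (GRCh38.p14), which gives 250 bases before and 50 after a start site. UBA7 and USP18 had no entry. The pattern GAAANNGAAA, the core of the interferon-stimulated response element, was searched on both strands, with overlapping matches counted. It occurred in 3.57% of 35116 promoters of this length. The promoters of 3 genes are shown, since they belong to the modifier and to the ligases that lie side by side, and capitals mark the matches.

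ISG15, chr1:1013247-1013546, plus strand: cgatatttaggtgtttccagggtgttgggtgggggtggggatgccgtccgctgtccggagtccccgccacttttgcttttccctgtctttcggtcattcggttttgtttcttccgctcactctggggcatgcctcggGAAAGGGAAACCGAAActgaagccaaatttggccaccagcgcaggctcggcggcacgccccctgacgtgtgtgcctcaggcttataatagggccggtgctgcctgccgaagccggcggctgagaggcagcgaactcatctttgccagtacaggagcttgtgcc

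HERC5, chr4:88456869-88457168, plus strand: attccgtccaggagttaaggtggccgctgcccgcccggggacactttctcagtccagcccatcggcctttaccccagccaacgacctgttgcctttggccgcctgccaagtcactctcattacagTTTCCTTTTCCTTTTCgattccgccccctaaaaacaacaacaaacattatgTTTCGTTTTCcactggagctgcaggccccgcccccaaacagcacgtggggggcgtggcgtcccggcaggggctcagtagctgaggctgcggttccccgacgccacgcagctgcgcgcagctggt

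HERC6, chr4:88378602-88378901, plus strand: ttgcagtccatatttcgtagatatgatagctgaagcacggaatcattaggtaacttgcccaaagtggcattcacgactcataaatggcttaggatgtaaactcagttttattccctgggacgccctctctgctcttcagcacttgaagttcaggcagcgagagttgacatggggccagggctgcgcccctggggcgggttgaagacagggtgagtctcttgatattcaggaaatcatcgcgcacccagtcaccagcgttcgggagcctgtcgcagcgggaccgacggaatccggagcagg

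The ISG15 window held 2 overlapping matches, GAAAGGGAAA and GAAACCGAAA, which begin 113 and 107 bases before the start site. The HERC5 window held 3 on the other strand, read there as TTTCCTTTTC at 125 and 119 bases and TTTCGTTTTC at 74 bases before the start site. The HERC6 window and both UBE2L6 windows held none. The pattern TTCNNNGAA, the core of the gamma-activated site and its own reverse complement, was in none of these windows and in 7.66% of all. These are matches of letters, and no binding was measured. The windows follow RefSeq start sites, which can differ from the GENCODE gene ends given below. The UBE2L6 gene, on the minus strand, begins at 57568284, beyond the last base searched, 57568185. The HERC6 gene begins at 88378739, inside its window. Bases before these GENCODE starts were thus not searched for UBE2L6 and only partly for HERC6.

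ISG15 was the most abundant member in every library. Its gene (ENSG00000187608.5) spans, in GRCh38 like all positions given here, chromosome 1, 1001138 to 1014540, plus strand, with 2 exons in a canonical transcript of 637 bases. It had 381 and 367.5 CPM in the CRNN libraries, from 8409 and 8245 counts. It had 92.5 and 77.7 CPM in the GFP libraries, from 1782 and 973 counts, and 377.5 and 162 CPM in the untreated libraries, from 9882 and 4044 counts. The CRNN and GFP libraries did not overlap, while untreated replicate 1 lay between the CRNN libraries and untreated replicate 2 lay between them and GFP. The log2 fold change of CRNN over GFP was 2.14 (SE 0.40, n = 2 per group), which is 4.398-fold. Its adjusted p over all genes was 0.706 (edgeR), so it did not pass the threshold of 0.05. An antisense long noncoding RNA (ENSG00000224969) and a pseudogene (ENSG00000231702) overlap the ISG15 gene model, and they had at most 12 and 32 counts in a library. Both lie on the other strand, and the strand setting of the counting is not given in the sources used here.

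USP18, the protease, had the pattern most like that of ISG15 among the members. The gene (ENSG00000184979.9; chromosome 22, 18150118 to 18177397, plus strand, 11 exons) had 22.6 and 22.4 CPM in CRNN, 8.05 and 8.46 CPM in GFP, and 23.1 and 9.89 CPM in untreated cells. The 3 highest libraries were again both CRNN libraries and untreated replicate 1, and untreated replicate 2 lay close to the GFP pair. The log2 fold change of CRNN over GFP was 1.45 (SE 0.39; adjusted p = 0.999). USP41, a near-identical copy of USP18 on chromosome 22, had between 1 and 4 counts in a library against 106 to 606 for USP18, and reads that fit both copies may be lost or split, so the level of USP18 is uncertain.

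UBE2L6, which takes ISG15 from the activating enzyme, was the next most abundant member. The gene (ENSG00000156587.11; chromosome 11, 57551656 to 57568284, minus strand, 4 exons) had 158 and 181 CPM in CRNN, 58.4 and 71.3 CPM in GFP, and 145 and 94.1 CPM in untreated cells. Both untreated libraries lay between the CRNN and GFP pairs. The log2 fold change of CRNN over GFP was 1.38 (SE 0.30; adjusted p = 0.999).

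UBA7, the activating enzyme, had the smallest difference of the 6. The gene (ENSG00000182179.6; chromosome 3, 49805209 to 49813953, minus strand, 24 exons) had 33.4 and 32.1 CPM in CRNN, 15.9 and 19.2 CPM in GFP, and 32.2 and 22.7 CPM in untreated cells. CRNN and GFP libraries did not overlap, and untreated replicate 1 was level with CRNN. The log2 fold change of CRNN over GFP was 0.90 (SE 0.28; adjusted p = 0.999).

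The ligases HERC6 and HERC5 lie in the same orientation on chromosome 4, 14021 bases apart. HERC6 (ENSG00000138642.10; 88378739 to 88443097, plus strand, 23 exons) had 32 and 33.5 CPM in CRNN, 4.26 and 12.1 CPM in GFP, and 27.8 and 16.1 CPM in untreated cells. Its log2 fold change of CRNN over GFP was 2.01 (SE 0.48; adjusted p = 0.999). The groups did not overlap, but the GFP replicates were 2.85-fold apart.

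HERC5 (ENSG00000138646.4; 88457119 to 88506163, plus strand, 23 exons) had 30.6 and 36.3 CPM in CRNN, 5.87 and 24.1 CPM in GFP, and 22.1 and 25.3 CPM in untreated cells. GFP replicate 1 stood far below all other libraries, and GFP replicate 2 lay between the untreated libraries, unlike any other member. Its log2 fold change of CRNN over GFP was 1.17 (SE 0.53; adjusted p = 0.999), with a 95% interval from -0.04 to 2.38. The interval includes 0 for HERC5 and for no other member in this comparison.

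**Figure D1:**
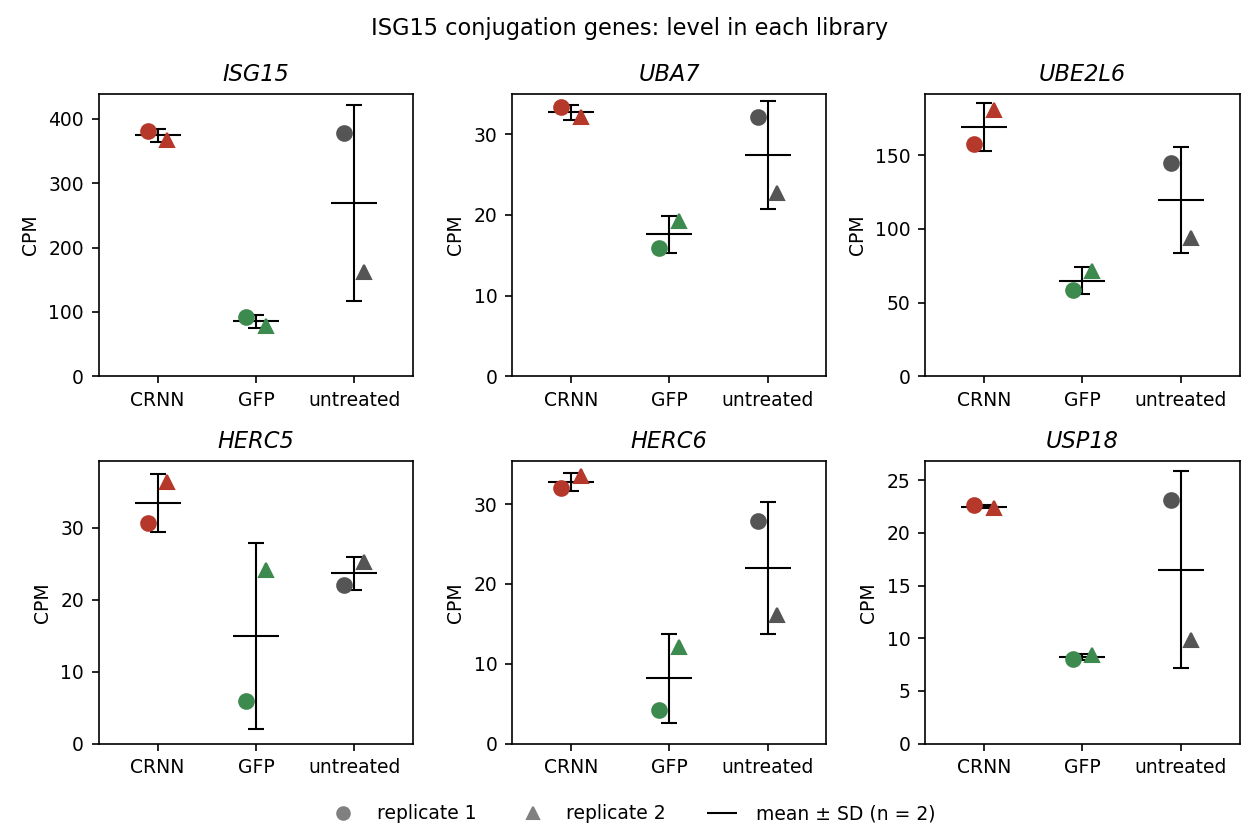
Level of each ISG15 conjugation gene in CPM (linear axis from 0) in the CRNN, GFP and untreated libraries; circles are replicate 1, triangles replicate 2, and the bar is the mean with SD (n = 2). CRNN replicates lie close together, untreated replicate 1 is near them for ISG15, UBA7 and USP18, and HERC5 is low in GFP replicate 1 alone (5.87 CPM).

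By mean level, all 6 members had the same order of groups, with CRNN highest, untreated cells between and GFP lowest. ISG15 averaged 374 CPM ± 9.66 in CRNN, 85.1 CPM ± 10.5 in GFP and 270 CPM ± 152 in untreated cells (SD, n = 2 each). USP18 averaged 22.5 CPM ± 0.172 in CRNN, 8.26 CPM ± 0.290 in GFP and 16.5 CPM ± 9.38 in untreated cells (SD, n = 2 each). The untreated mean stands for 2 unlike libraries, and its distance from CRNN was within its own SD for both genes.

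In CRNN against GFP, 0 of the 6 members passed over all genes by edgeR, where 0.0183% of all genes passed upward. By edgeR's unadjusted p, 5 members were under 0.05, against 1.49% of all genes in that direction, HERC5 being the exception. The members were chosen with earlier results of these data known, and their levels moved together over the libraries. The 5 are therefore not separate findings, and the shares over all genes are given as a description only. The median log2 fold change of the members was 1.42, with a range from 0.90 to 2.14, beside a median of 0 over all tested genes. All 6 had both CRNN libraries above both GFP libraries, a pattern held by 19.4% of all genes. By limma-voom 0 members passed (0.0183% of genes upward), and by DESeq2 ISG15, UBE2L6 and HERC6 rose (0.138% of genes upward), with adjusted p = 4.91e-04 for ISG15, 0.0236 for UBE2L6 and 0.0384 for HERC6.

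The call of ISG15 differed between fits, which also differ in the genes tested. When the untreated libraries were left out of the model altogether, ISG15 rose (log2 fold change 2.13, adjusted p = 0.0364; 0.0765% of genes upward), and it rose too without untreated replicate 1 (adjusted p = 0.0205; 0.0679% of genes upward) or untreated replicate 2 (adjusted p = 0.0184; 0.0733% of genes upward). A lone untreated library adds no spread between replicates, so these fits all rest on the spread of the same CRNN and GFP libraries. They are therefore not separate support for the call. What they leave out is the spread of the untreated pair, where the SD of log2 CPM for ISG15 was 0.863. That SD was 0.037 in CRNN and 0.179 in GFP. Whether this changed the call was not tested. Without a filter on low counts ISG15 and HERC6 rose (0.0748% of genes upward). With a GFP or CRNN library left out, a lone library stands for its group and is assumed to vary like the others. Whether a member passes in such a fit therefore says little about that member, and the effect sizes are given instead. ISG15 stayed between 2.04 and 2.28 with each library left out, and USP18 between 1.42 and 1.51. HERC5 was at 0.48 without GFP replicate 1 and at 2.54 without GFP replicate 2, and HERC6 at 1.44 and 2.97.

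**Figure D2:**
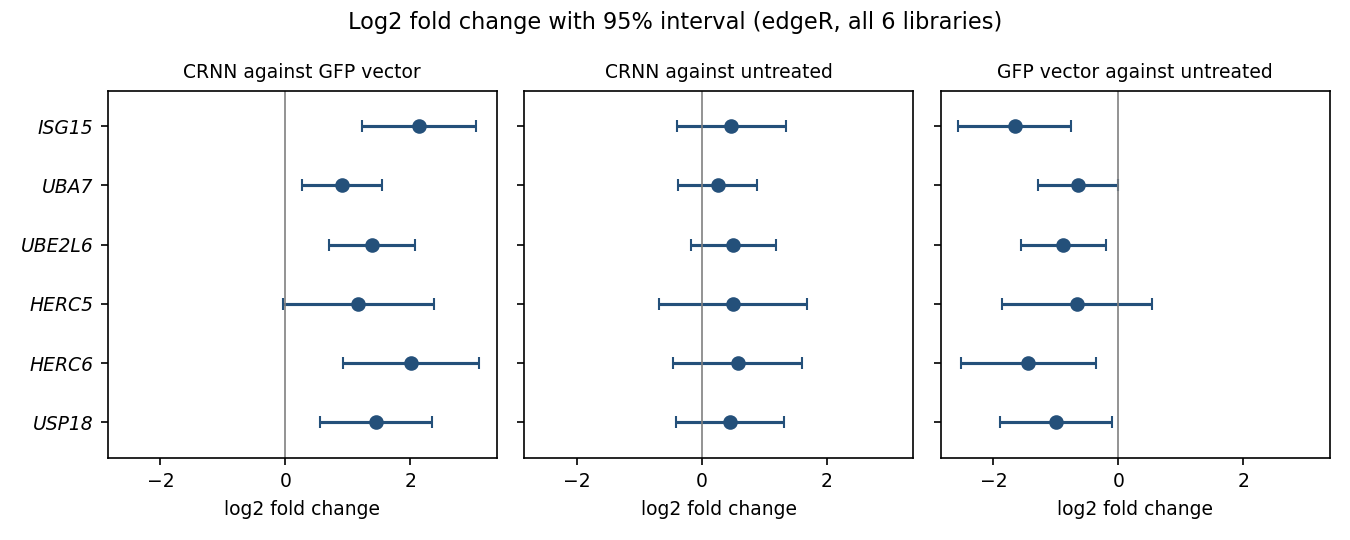
Log2 fold change of each member with its 95% interval (edgeR on all 6 libraries; n = 2 per group) in the 3 comparisons. In CRNN against GFP 5 of 6 intervals lie above 0, in CRNN against untreated cells all 6 include 0, and in GFP against untreated cells 5 lie below 0.

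In CRNN against untreated cells no member passed. The log2 fold changes ran from 0.25 (SE 0.28) for UBA7 to 0.57 (SE 0.46) for HERC6. Their median was 0.49, beside -0.01 over all genes. The values of UBA7 and HERC5 (0.5, SE 0.52) were smaller than their SE. Those of ISG15, UBE2L6 (0.5, SE 0.3), HERC6 and USP18 were larger than their SE, but the interval of every member included 0. The interval for ISG15, -0.40 to 1.35, does not show that the groups are alike. At an unadjusted p under 0.05 there were 0 members (1.52% of genes upward), and 0 passed by edgeR (0.0061% of genes upward), limma-voom (also 0.0061%) or DESeq2 (0.0244%). UBE2L6, HERC5 and HERC6 had both CRNN libraries above both untreated libraries, as did 18.7% of all genes.

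Which untreated library was used set the size of this comparison. Without untreated replicate 1 ISG15 was at 1.21, USP18 at 1.19, HERC6 at 1.02, UBE2L6 at 0.85 and UBA7 at 0.53, and without untreated replicate 2 they were at -0.01, -0.04, 0.24, 0.23 and 0.03. HERC5 was at 0.41 and 0.61. None of these values passed over all genes, of which 0.0226% passed in either direction without untreated replicate 1 and 5.39% without untreated replicate 2. HERC5 was the member least moved by the choice of untreated library, and its untreated replicates were 1.14-fold apart, against 2.33-fold for ISG15 and 2.34-fold for USP18.

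In GFP against untreated cells all 6 members had negative log2 fold changes, so that the vector control had the lower levels. ISG15 was at -1.66 (SE 0.40), HERC6 at -1.44 (SE 0.47), USP18 at -1.0 (SE 0.39), UBE2L6 at -0.88 (SE 0.30), HERC5 at -0.67 (SE 0.53) and UBA7 at -0.64 (SE 0.28). The median was -0.94 beside -0.01 over all genes, and the adjusted p-values were between 0.711 and 0.765 (edgeR), so 0 members passed, beside 0.0% of all genes in this direction. At an unadjusted p under 0.05 there were 5 members, all but HERC5, against 2.9% of genes downward. All but HERC5 had both GFP libraries below both untreated libraries, a pattern of 15.5% of genes.

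Here too the calls moved with the method and with untreated replicate 2. By limma-voom 0 members passed (0.0% of genes downward), by DESeq2 ISG15 fell (adjusted p = 0.0462; 0.0671% of genes downward), and without a filter on low counts ISG15 fell as well (0.455% of genes downward). Without untreated replicate 2, ISG15 (-2.16), HERC6 (-1.80) and USP18 (-1.50) fell in the vector control, where 3.4% of all genes fell. Without untreated replicate 1, ISG15 was at -0.95 and USP18 at -0.28. Either fit leaves a lone untreated library, so a call or its absence there says little about the members. Without GFP replicate 1, HERC5 was at 0.02. The 2 comparisons with untreated cells share those libraries, and the 2 with CRNN share the CRNN pair.

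**Figure D3:**
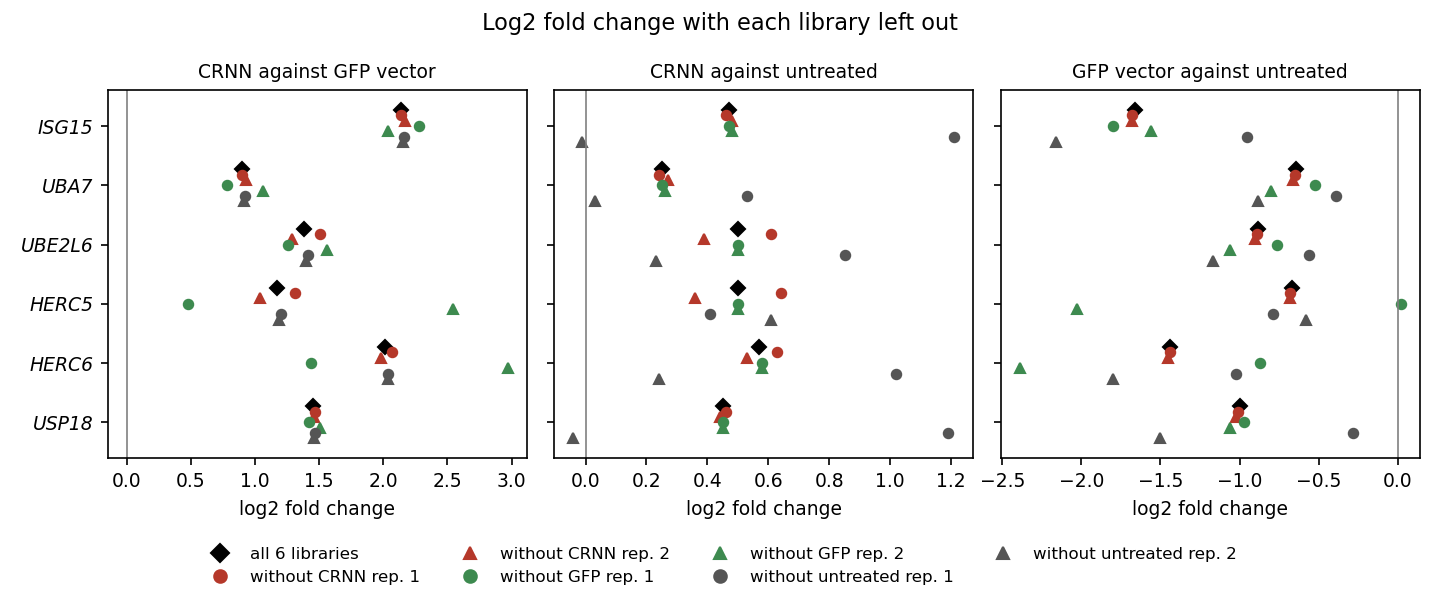
Log2 fold change of each member with all 6 libraries (diamond) and with each library left out (circles for replicate 1, triangles for replicate 2, coloured by group), in the 3 comparisons; each panel has its own horizontal scale. In CRNN against GFP, HERC5 (0.48 and 2.54) and HERC6 (1.44 and 2.97) move most with the GFP library left out; in CRNN against untreated cells ISG15, USP18 and HERC6 (1.02 and 0.24) move most with the untreated library left out.

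The members differed in how far their replicates agreed. Among 11729 genes whose log2 CPM averaged 1 or more, 0.546% differed more than HERC5 between the GFP replicates, where HERC5 stood at -2.02 as replicate 1 minus replicate 2 on the log2 scale, and 2.06% differed more than HERC6, at -1.49. USP18 stood at -0.07 and ISG15 at 0.25 between the same libraries, beside a median size of 0.43 over all genes. Between the untreated replicates the order was turned round, with ISG15 and USP18 both at 1.22 and HERC5 at -0.19, beside a median size of 0.36. In CRNN the largest difference of a member was -0.24, for HERC5.

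HERC5 and HERC6 have the lowest GC content of the members, 44.1% and 45.6%, against 49.8% for USP18 and 64.2% for ISG15. Across 11532 genes, which are not independent replicates, Spearman's rho between GC content and the centred level was 0.642 in GFP replicate 1 and -0.391 in GFP replicate 2, the other 4 libraries lying between -0.274 and 0.147. After removal of each library's trend with GC content and length, the difference of GFP replicate 1 minus replicate 2 was -1.65 for HERC5, -1.20 for HERC6, -0.60 for UBE2L6, -0.59 for UBA7, -0.43 for ISG15 and -0.15 for USP18, so that all 6 members were lower in replicate 1, and ISG15 had changed its sign. After that correction the members' log2 fold changes of CRNN over GFP were between 0.94 and 2.09, and 0 passed. The 13 mitochondrial messenger RNAs, a sign of RNA quality, were all lower in CRNN than in GFP (13 of 13 negative, median -1.05, 9 at an unadjusted p under 0.05 where 2.9% of all genes were so downward, 0 passed), with summed levels of 10460 and 6194 CPM in CRNN, 15100 and 11930 CPM in GFP and 10120 and 12350 CPM in untreated cells, and their part in the results was not tested.

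Per length of transcript, ISG15 outnumbered every enzyme that handles it. Its level was 598 and 577 CPM per kb in CRNN, 145 and 122 CPM per kb in GFP, and 593 and 254 CPM per kb in untreated cells. UBE2L6 came next, with 129 and 148 CPM per kb in CRNN, 47.9 and 58.5 CPM per kb in GFP, and 119 and 77.2 CPM per kb in untreated cells. UBA7, USP18 and both ligases lay between 1.13 and 12.5 CPM per kb in all libraries. In CRNN the order below UBE2L6 was USP18 (12.1 CPM per kb ± 0.0926), UBA7 (9.91 ± 0.272), HERC5 (9.54 ± 1.14) and HERC6 (8.68 ± 0.284; SD, n = 2 each). UBA7 and HERC5, and HERC5 and HERC6, differed there by less than the SD of HERC5. These lengths are those of GENCODE 44 canonical transcripts, and other isoforms could move the order.

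The enzymes were not in a fixed ratio to ISG15. UBA7 stood at 1.69% and 1.68% of the ISG15 level per kb in CRNN, at 3.32% and 4.78% in GFP, and at 1.64% and 2.70% in untreated cells. USP18 stood at 2.03% and 2.09% in CRNN, at 2.98% and 3.74% in GFP, and at 2.10% and 2.09% in untreated cells, where the ratio hardly moved although ISG15 was 2.33-fold and USP18 2.34-fold apart. UBE2L6 stood at 21.6% and 25.7% in CRNN, at 33.0% and 48.0% in GFP, and at 20.1% and 30.4% in untreated cells. For these 3 genes both GFP libraries had the highest ratios of the 6, so ISG15 was further below CRNN there than these enzymes were. These ratios were not tested.

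The ligases had ratios of another shape. HERC5 stood at 1.46% and 1.79% of the ISG15 level per kb in CRNN, at 1.15% and 5.63% in GFP, and at 1.06% and 2.83% in untreated cells. HERC6 stood at 1.42% and 1.54% in CRNN, at 0.776% and 2.64% in GFP, and at 1.24% and 1.68% in untreated cells. The GFP libraries held both the highest and, for HERC6, the lowest ratio. Per kb, HERC5 was 1.03 and 1.17 times HERC6 in CRNN, 1.48 and 2.14 times in GFP, and 0.853 and 1.68 times in untreated cells.

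**Figure D4:**
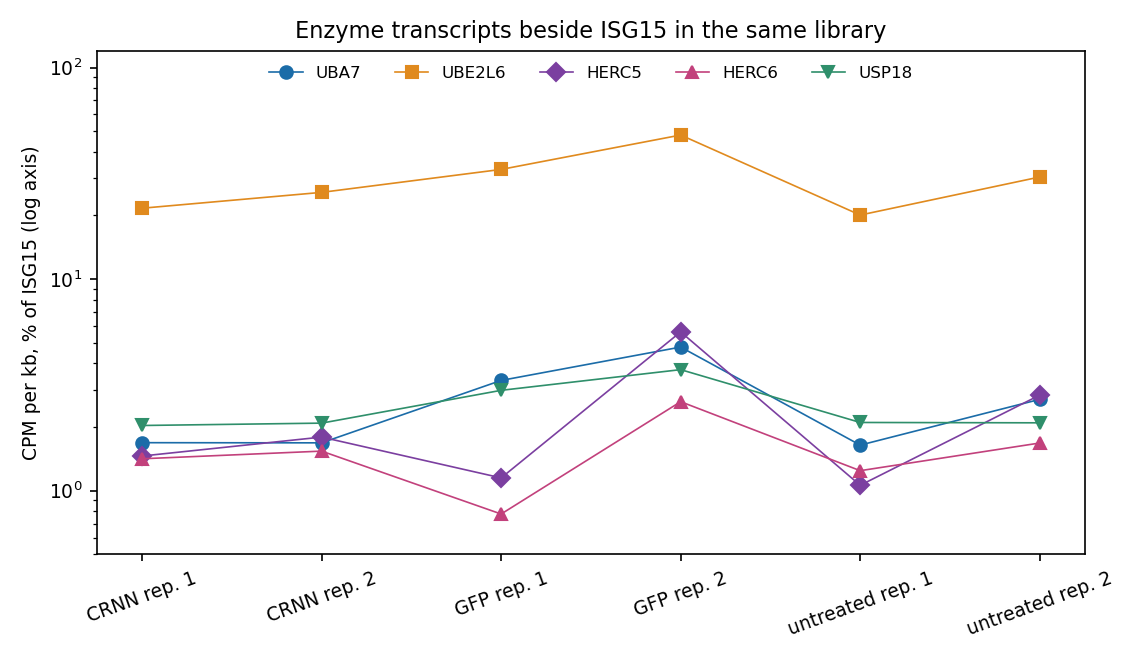
Level per kb of UBA7, UBE2L6, HERC5, HERC6 and USP18 as a percentage of ISG15 in the same library (log axis), for the CRNN, GFP and untreated libraries in turn; lines only guide the eye. UBE2L6 lies between 20.1% and 48.0%, the others between 0.776% and 5.63%, and HERC5 has the widest spread.

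As a description of likeness, profiles over the 6 libraries were compared by the root mean square distance of log2 CPM centred per gene. USP18 lay 0.339 from ISG15, with 1 of 11723 other genes nearer, UBE2L6 lay 0.419 away with 7 nearer, HERC6 0.520 with 25 nearer, UBA7 0.586 with 53 nearer, and HERC5 0.831 with 1334 nearer, which is 11.4%. The closest pair of members was UBE2L6 and USP18, at 0.194 (r = 0.963 over 6 libraries). HERC5 was closest to its neighbour HERC6, at 0.443 (r = 0.907), and its r with ISG15 was 0.592. For the other members r with ISG15 was 0.974 for USP18, 0.964 for UBA7 and UBE2L6, and 0.867 for HERC6. By r, UBA7 was thus more like ISG15 than HERC6 was, unlike by distance. The 6 points share their libraries, depth and groups, so no p is given.

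The 8 genes outside the set that lay nearest to ISG15 were EPSTI1, IFITM3, PLSCR1, MT1M, IRF7, IFITM1, LAP3 and HAP1, at distances from 0.318 to 0.431. EPSTI1, an interferon-induced gene, had 24.8 and 24.7 CPM in CRNN, 5.40 and 8.54 CPM in GFP, and 22.8 and 9.53 CPM in untreated cells. IRF7, a transcription factor that drives interferon genes, had 32.05 and 25.8 CPM in CRNN, 11.3 and 10.5 CPM in GFP, and 29.6 and 10.2 CPM in untreated cells. IFITM3, a membrane protein that blocks virus entry, had 569.9 and 607 CPM in CRNN, 175 and 203 CPM in GFP, and 447 and 231 CPM in untreated cells. The high untreated replicate 1 and the low GFP pair that these share with ISG15 follow from picking genes by likeness to it. For IRF7, untreated replicate 2 lay below both GFP libraries. MT1M, a metallothionein, and HAP1 had under 4 CPM in every library.

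Upstream of the members, the receptor chains and kinases of type I interferon signalling were set beside STAT2 and IRF9, factors that act below them. None of these 6 genes passed in any comparison by edgeR, and in CRNN against GFP STAT2 and IRF9 were under an unadjusted p of 0.05, where 1.49% of all genes were so upward. In CRNN against untreated cells STAT2 was so too, at 0.73 (SE 0.25), beside 1.52% of genes upward. In GFP against untreated cells IFNAR2, at 1.07 (SE 0.40), was so beside 4.03% of genes upward, and IRF9, at -1.68 (SE 0.59), beside 2.9% downward. STAT2, which also anchors USP18 at the receptor, had 222 and 216 CPM in CRNN, 109.5 and 122 CPM in GFP, and 124 and 139 CPM in untreated cells, a log2 fold change of 0.92 (SE 0.25) for CRNN over GFP. Untreated replicate 1 was not high for STAT2, unlike for ISG15. IRF9, which binds DNA, had 3.44 and 2.01 CPM in CRNN, 1.09 and 0.798 CPM in GFP, and 4.58 and 1.56 CPM in untreated cells, at 1.51 (SE 0.60). IFNAR1 (-0.14, SE 0.39), IFNAR2 (-0.43, SE 0.39), JAK1 (0.21, SE 0.31) and TYK2 (-0.24, SE 0.26) each had a log2 fold change whose 95% interval included 0.

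Other genes tied to ISG15 or USP18 gave values on either side of 0. ARIH1 and TRIM25, ligases for which ISG15 transfer has also been described, were at -0.02 (SE 0.30) and 0.19 (SE 0.28) in CRNN against GFP, on the log2 scale. SKP2, part of a ubiquitin ligase that degrades USP18, was at 0.20 (SE 0.27). ITGAL and ITGB2, the chains of the integrin that extracellular ISG15 binds on lymphocytes, had at most 0.771 and 1.22 CPM in a library. With IFNAR2 and STAT2, that list of 7 genes had a median of 0.02, a range from -0.43 for IFNAR2 to 0.92 for STAT2, and 0 passed by edgeR. STAT2 was the 1 gene of 7 under an unadjusted p of 0.05, where 1.49% of all genes were so upward.

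The conjugation pathways of other ubiquitin-like proteins were set beside the members. None of the 12 SUMO, 7 NEDD8 and 6 UFM1 pathway genes passed in any comparison by edgeR, 0 were under an unadjusted p of 0.05 in CRNN against GFP, and their medians in CRNN against GFP were 0.09, 0.07 and 0.06, beside 1.42 for the ISG15 members. The largest values were 0.37 (SE 0.27) for SUMO2, a modifier, 0.43 (SE 0.39) for UBE2F, a conjugating enzyme for NEDD8, and 0.45 (SE 0.31) for UFM1. UBA1 and UBA6, which activate ubiquitin, were at -0.16 (SE 0.28) and 0.11 (SE 0.32), and UBE2L3, the ubiquitin-conjugating relative of UBE2L6, was at 0.51 (SE 0.25). UBD, which encodes the interferon-inducible modifier FAT10, had 0 counts in all 6 libraries, and the other 2 genes of its pathway were at 0.11 and 0.26. These lists were not tested against each other.

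In CRNN against GFP, the other HERC genes did not share the direction of HERC5 and HERC6. Against untreated cells their signs were mixed, with 2 of 4 positive in CRNN and 3 of 4 positive in GFP. HERC1, HERC2, HERC3 and HERC4 were at -0.37 (SE 0.30), -0.58 (SE 0.26), -0.44 (SE 0.35) and -0.27 (SE 0.35) on the log2 scale in CRNN against GFP, and 0 of 4 passed, HERC2 being the 1 gene under an unadjusted p of 0.05 (2.9% of all genes downward). HERC3, the next tested gene on the HERC5 side of the cluster, had 3.49 and 3.30 CPM in CRNN, 4.88 and 4.31 CPM in GFP, and 2.21 and 3.24 CPM in untreated cells. On the HERC6 side, PPM1K, a mitochondrial phosphatase, was at 0.44 (SE 0.33). The difference between these genes and the members was not tested.

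**Figure D5:**
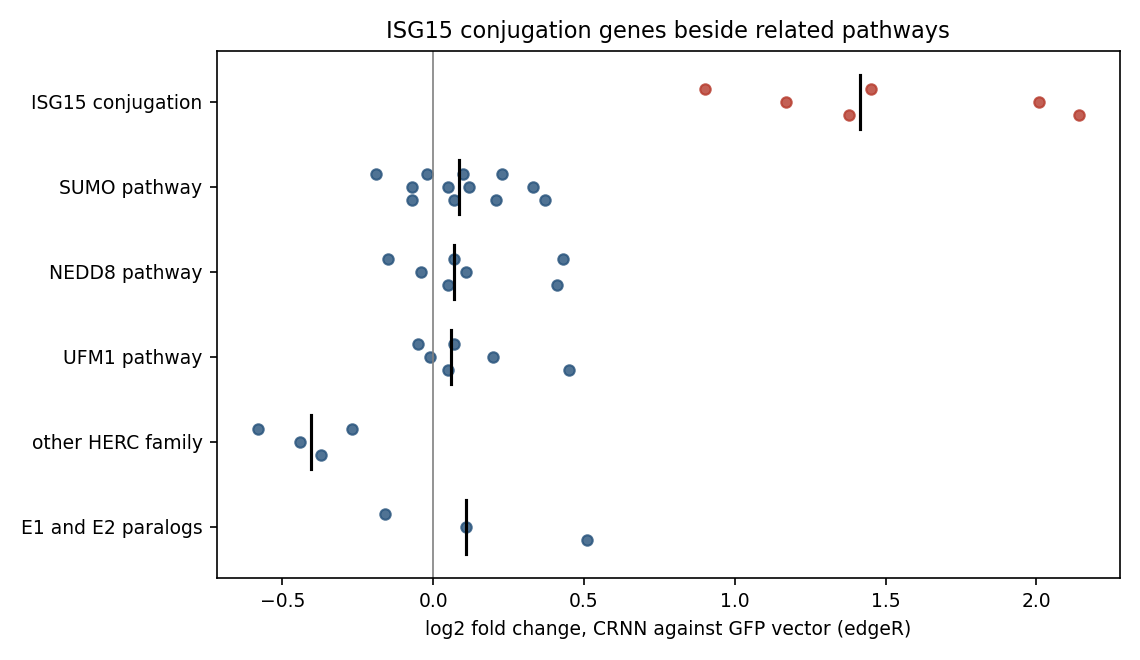
Log2 fold change of CRNN against GFP (edgeR) for each tested gene (points) of the ISG15 conjugation set, the SUMO, NEDD8 and UFM1 pathways, the other HERC genes, and the paralogs of UBA7 and UBE2L6, with medians as vertical bars. The 6 ISG15 conjugation genes lie between 0.90 and 2.14, and all SUMO, NEDD8 and UFM1 genes lie under 0.5.

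No gene next to a member passed in any comparison by edgeR. HES4, a transcriptional repressor next to ISG15 on the minus strand, had 32.8 and 29.3 CPM in CRNN, 19.4 and 16.4 CPM in GFP, and 67.9 and 20.1 CPM in untreated cells, a log2 fold change of 0.79 (SE 0.48). AGRN, which encodes the matrix protein agrin on the other side, was at -0.69 (SE 0.38). Beside UBE2L6, SERPING1, the complement C1 inhibitor, had 1.496 and 1.69 CPM in CRNN, 0.415 and 1.20 CPM in GFP, and 0.726 and 0.6005 CPM in untreated cells, at 1.04 (SE 0.56), and SMTNL1 on its other side was at 1.09 (SE 0.49). PEX26, beside USP18, had between 59.7 and 62.8 CPM in all 6 libraries, and INKA1 and TRAIP, beside UBA7, were at 0.41 (SE 0.37) and -0.08 (SE 0.32).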

How the data were processed

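Total RNA of 6 Cal27 libraries was sequenced in pairs with a stranded kit, per the labels. The authors deposited 1 table of unnormalized read counts, with a row for each of 57820 versioned Ensembl identifiers. Per the submitters' processing notes, the tools were STAR 2.6, HTSeq 0.6.1, FastQC 0.11.7, bcl2fastq and edgeR, with hg19, GRCh37 and GRCh38 listed as builds. No source used here gives the role of each build, the annotation, or how HTSeq treated strand.

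The 6 members and the lists set beside them were chosen with earlier results of these data known. Members were matched by identifier without version to GENCODE release 44 (GRCh38), from which names, coordinates, exons and lengths of the canonical transcript were taken. Genes kept by filterByExpr (minimum count 10, minimum total 15) numbered 16396. All 6 libraries were fitted in 1 model with edgeR 4.0.16 (TMM, quasi-likelihood F test, R 4.3.3), so that the groups share their estimate of the spread. Two-sided p-values were adjusted by the Benjamini-Hochberg method over the 16396 genes, and passing means an adjusted p under 0.05. SE is the log2 fold change divided by the square root of F. CPM were computed from the counts with TMM-scaled library sizes, and CPM per kb divides them by the canonical transcript's length. The pipeline was tested on simulated data for CRNN against GFP. There edgeR recovered 10% of 2-fold and 88% of 4-fold changes, with a mean of 4.67 false calls per run. Each run changed 200 genes, drawn from those whose log2 CPM averaged 1 or more. The simulated spread followed the average trend with level, without spread particular to a gene, GC trends or unlike untreated replicates. These shares are therefore not the power of the real comparison, where ISG15 at 4.398-fold had an adjusted p of 0.706 (edgeR). Alternatives were other scaling factors and filters, DESeq2 1.42.0, limma-voom (limma 3.58.1), a model of the groups in question alone, a replicate block, a correction of GC content and length (values for 97.2% of tested genes) and each library left out. Nothing says whether the replicates were separate cultures beyond the word biological. The p-values set a difference against the spread between these libraries, pooled over the groups and drawn toward that of all tested genes. The text names the members, CRNN, tested neighbours of members, USP41, the 8 genes nearest to ISG15 in pattern and members of the lists. A listed gene is not reported here.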

Additional observations from a re-analysis of the deposited data

How the results depend on the processing

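Of 306 member values recomputed under 17 alternatives, 303 kept their direction. Reversed were ISG15 (-0.01) and USP18 (-0.04) in CRNN against untreated cells without untreated replicate 2, and HERC5 (0.02) in GFP against untreated cells without GFP replicate 1. With each library left out, ISG15 ran from -0.01 to 1.21 and USP18 from -0.04 to 1.19 in that first comparison, and HERC5 from -2.03 to 0.02 in GFP against untreated cells.

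In CRNN against GFP, where 0 members and 3 genes passed, there were 2 members and 34 genes without a filter on low counts, 3 and 22 by DESeq2, and 1 and 13 with only those groups fitted. The correction of GC content and length left 1 gene, with or without the replicate block. Leaving out a library gave 0 to 1 members, 0 to 15 genes (0 without either GFP library) and member medians of 1.34 to 1.80. In CRNN against untreated cells 1 gene passed, against 152 without a filter and 7 by DESeq2. Leaving out a library gave 1 to 957 genes, the most without untreated replicate 2, and medians of 0.129 to 0.938. In GFP against untreated cells 0 genes passed, against 195 genes and 1 member without a filter and 29 genes and 1 member by DESeq2, and leaving out a library gave 0 to 966 genes and 0 to 3 members. The cause of these changes was not tested.

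Same-numbered libraries deviated together with r = 0.255, -0.0707 and 0.193 over 11729 genes, so the numbers were not taken to pair them. With the replicate block, the members' median in CRNN against GFP was 1.42, 4 genes passed and 0 members did. With 2 libraries per group and a biological coefficient of variation of 0.289, intervals of members were wide, and low genes are limited by 3 counts being 0.239 CPM in the shallowest library.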
